A study of Mus musculus with 24 samples.

Results

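The genes described are 10 genes of resident Kupffer cells, the macrophages that live in the sinusoids of the liver: Clec4f, Vsig4, Timd4, Cd5l, Marco, C6, Folr2, Adgre1, Cd163 and Csf1r. They were chosen by symbol, by no rule on measured values but with earlier results of these data known. All 10 were found among the 53467 genes of the deposited count table and passed the filter on low values. They were measured by RNA sequencing of snap-frozen bulk liver from 24 male C57BL/6JAusb mice, 1 library per mouse. Every mouse, controls included, received a hydrodynamic tail vein injection (HTVI) at an age of 14 to 15 weeks, a rapid large-volume injection that brings plasmid DNA mainly into hepatocytes, with 0.8 µg of the Sleeping Beauty transposase plasmid (SB). SB was given alone, with 10 µg each of AKT and c-Met plasmids (SB/AKT/c-Met), or with 10 µg each of AKT and NRas plasmids (SB/AKT/NRas). These plasmids carry oncogenes that are expressed all the time. The study reported tumors or nodules in both models, though not every mouse had visible nodules. From day 8 to 10 onwards, 10 to 11 intraperitoneal injections over 5 to 6 weeks, before the livers were taken, held either saline or thioacetamide (TAA), a hepatotoxin, at 100 mg/kg first and 200 mg/kg afterwards. The groups are named by plasmids and injection. SB + saline and SB + TAA had 4 livers each, as did SB/AKT/c-Met + TAA and also SB/AKT/NRas + saline, while 3 livers made up SB/AKT/c-Met + saline and 5 made up SB/AKT/NRas + TAA. No liver without HTVI was analysed here.

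Kupffer cells line the liver sinusoids and clear microbes, aged red cells and debris from portal blood. They are seeded before birth and renew themselves in the adult liver. When they are lost, blood monocytes can enter, take up residence and switch on the Kupffer cell genes one after another, with Timd4 among the late ones. The 10 genes fall into roles. Clec4f, Vsig4, Timd4 and Marco encode surface receptors that bind sugars, complement-coated particles, dying cells and microbes. Cd163 and Folr2 are receptors for haptoglobin-hemoglobin complexes and for folate. Cd5l and C6 are secreted proteins. Csf1r is the receptor for the growth factors CSF1 and IL-34, on which macrophages depend, and Adgre1 encodes F4/80, a surface protein carried by mouse macrophages in general. C6, the sixth complement component, is also made by hepatocytes.

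The libraries held 2152510 to 3399247 counted molecules (median 2832909), of which 655 to 1625 belonged to the 10 genes. Levels are CPM, counts scaled to a common library size, after TMM scaling, given as mean ± SD over livers, and differences are log2 fold changes ± SE from 1 edgeR quasi-likelihood model of the 6 groups, adjusted over the 19381 genes tested. A gene passed at an adjusted p under 0.05, with no fold threshold. SB + saline livers had TMM factors of 0.7719 to 0.8175 and 15.6% to 16.69% of records assigned to genes, against 0.9432 to 1.145 and 20.68% to 23.13% in SB + TAA. The values under another scaling are given in the closing section. The 9 NRas livers held 28 to 768 counts of human NRAS and the 7 c-Met livers 2 to 31 counts of human MET, against at most 2 and 0 in the rest. SB + TAA replicate 4 stood apart by its skeletal muscle transcripts, with 4810 CPM summed over 6 muscle genes against 3.42 to 22.3 in the other 23 livers. SB/AKT/NRas + saline replicate 1 stood apart by its low human NRAS count, the 28 above. Without both livers, the number of the 10 genes that passed stayed at its value in all 11 comparisons between groups. It also stayed in the test among the 6 groups. Calls over all genes did change. Between SB + TAA and SB + saline they fell from 1160 of 19381 to 652 of 19097. Between SB/AKT/NRas livers with saline and SB + saline they rose from 1629 of 19381 to 3052 of 19097. Equal counts therefore do not show that these livers had no influence. The call for Folr2 given below was lost when SB + TAA replicate 4 alone was left out. In bulk liver, fewer cells of a type and less RNA per cell cannot be told apart.

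The promoters of Clec4f, Vsig4 and Cd5l are shown because Vsig4 and Cd5l followed Clec4f most closely from liver to liver within groups, as described further on. The stretches end where each gene begins in the deposited table and are given 5′ to 3′ on the strand of the gene, from RefSeq (GRCm38.p6). They lie at chr6:83656188-83656366 on the minus strand (Clec4f), chrX:96293439-96293688 on the minus strand (Vsig4) and chr3:87357631-87357880 on the plus strand (Cd5l). Capitals mark the 1 match to the 4 motifs searched, the PU.1 core of Cd5l, read on the opposite strand.
Clec4f: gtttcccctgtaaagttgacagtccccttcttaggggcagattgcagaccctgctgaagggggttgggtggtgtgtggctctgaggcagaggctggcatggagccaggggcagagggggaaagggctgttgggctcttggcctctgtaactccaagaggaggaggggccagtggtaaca
Vsig4: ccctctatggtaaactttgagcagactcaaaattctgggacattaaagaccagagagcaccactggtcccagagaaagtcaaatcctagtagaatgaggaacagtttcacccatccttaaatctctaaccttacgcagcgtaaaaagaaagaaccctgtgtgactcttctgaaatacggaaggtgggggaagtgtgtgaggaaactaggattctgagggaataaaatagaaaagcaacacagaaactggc
Cd5l: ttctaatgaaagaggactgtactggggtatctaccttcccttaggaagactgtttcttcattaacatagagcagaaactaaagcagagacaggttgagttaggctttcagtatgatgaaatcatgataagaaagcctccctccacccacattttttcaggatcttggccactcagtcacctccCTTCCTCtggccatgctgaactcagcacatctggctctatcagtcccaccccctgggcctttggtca

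The search covered both strands of the window from 250 bases before to 50 bases after the RefSeq start, for 9 windows of the 8 genes that the table holds: Clec4f, Vsig4, Timd4, Cd5l, Marco, C6, Folr2 with 2 starts, and Cd163. GAGGAAG, the core bound by the macrophage factor PU.1, was found in Cd5l (on the opposite strand, from base −67) and Marco (from base −146), and in 13.6% of all 32851 promoter windows. TGCTGAC, an element bound by MAF factors, was found in Timd4 and in 4.67% of all windows. AGGTCA, the hexamer bound by nuclear receptors, was found in Clec4f (on the opposite strand, from base −22, inside the gene as the deposited table places it), Timd4 and C6, and in 16.3% of all windows. TATAAA was in none of the 9 windows and in 13.6% of all. No motif was shared by all of these genes, and Vsig4 held no match.

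Among the 6 groups, 3 of the 10 genes differed by the edgeR F test: C6 (adjusted p = 0.0308), Folr2 (adjusted p = 0.0372) and Adgre1 (adjusted p = 0.0395). Over all genes tested, 9.01% passed. The 7 others had edgeR adjusted p-values of 0.16 (Cd5l), 0.201 (Marco), 0.267 (Csf1r), 0.281 (Timd4), 0.286 (Clec4f), 0.299 (Vsig4) and 0.462 (Cd163). Each of the 3 that passed had its own order of groups: C6 was highest in SB/AKT/c-Met livers with saline, Folr2 in SB/AKT/NRas livers with TAA and Adgre1 in SB/AKT/c-Met livers with TAA. The 3 calls depended on single livers, since leaving out 1 liver at a time gave 0 to 3 of the 10 genes, with 0 without SB + saline replicate 3 or SB/AKT/NRas + TAA replicate 2 or 5, and 1 without SB + saline replicate 1, 2 or 4, SB/AKT/c-Met + saline replicate 1 or SB/AKT/NRas + TAA replicate 1. Limma-voom gave 0 of 10, and the share of all genes that passed in these other fits was not counted.

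**Figure D1:**
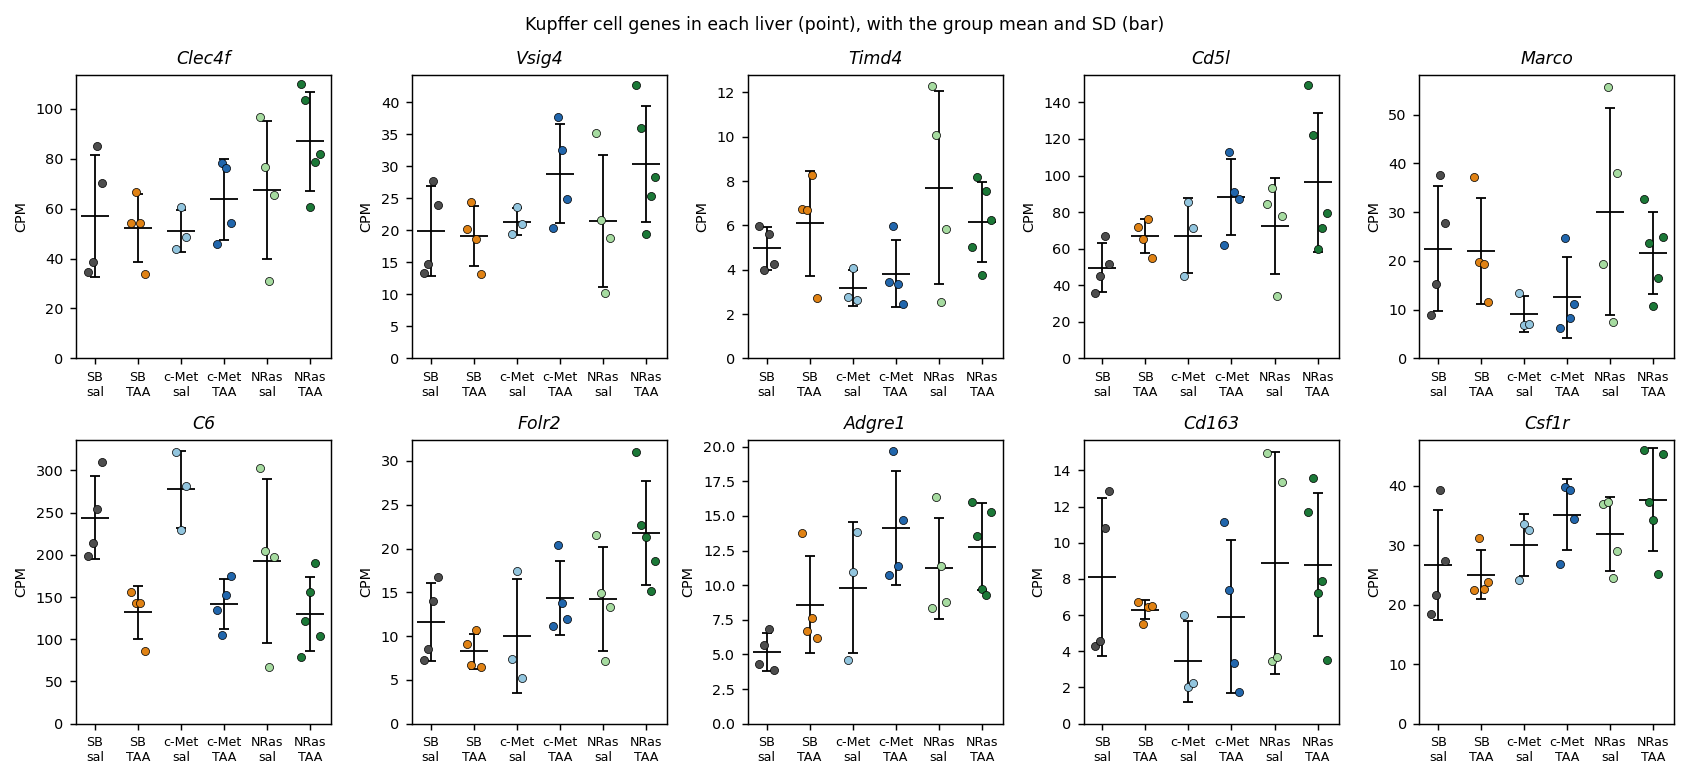
Each panel shows 1 gene, with a point for each liver, a bar for the mean and whiskers for the SD; the vertical axis is CPM from 0 and the horizontal axis lists the groups, where c-Met stands for SB/AKT/c-Met, NRas for SB/AKT/NRas and sal for saline. Adgre1 was lowest in SB + saline, Folr2 was highest in SB/AKT/NRas + TAA, the mean of C6 was lower in the 3 TAA groups than in the 3 saline groups, and the points of most other genes overlapped.

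Clec4f, a C-type lectin, is in mice largely restricted to Kupffer cells. In SB + saline it stood at 34.7, 38.7, 85 and 70.2 CPM in the 4 livers, and in SB + TAA at 54.1, 66.7, 54.4 and 33.8. SB/AKT/c-Met livers with saline had 44, 60.5 and 48.7 CPM, and SB/AKT/c-Met livers with TAA had 45.7, 78.5, 76.4 and 54.4. The widest range was that of SB/AKT/NRas livers with saline, with 96.7, 76.6, 31 and 65.4 CPM. The highest mean was that of SB/AKT/NRas livers with TAA, 86.9 ± 19.8 CPM, from livers at 109.8, 103.5, 60.8, 78.7 and 81.7. The group means spanned a ratio of 1.70, the groups overlapped in all 9 comparisons, and no neighbours in the order of means were more than 1 SD apart. TAA alone changed Clec4f by a log2 value of −0.14 ± 0.29 (95% interval −0.74 to 0.46), so a loss to below 0.60 of the SB + saline level lies outside the interval. Against SB + TAA, Clec4f in SB/AKT/NRas livers with TAA differed by 0.74 ± 0.27, which did not pass (edgeR adjusted p = 0.244).

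Vsig4, a complement receptor that takes up opsonized particles, kept close to Clec4f. It stood at 13.3, 14.8, 27.7 and 24 CPM in SB + saline and at 20.2, 24.5, 18.7 and 13.3 in SB + TAA. The means were 21.3 ± 2.09 CPM in SB/AKT/c-Met livers with saline, 28.9 ± 7.71 in SB/AKT/c-Met livers with TAA, 21.5 ± 10.3 in SB/AKT/NRas livers with saline and 30.4 ± 9.11 in SB/AKT/NRas livers with TAA. Marco, a scavenger receptor for bacteria and particles, had the widest spread between livers of a group, from 7.39 to 55.7 CPM within SB/AKT/NRas livers with saline. Its lowest means were those of SB/AKT/c-Met livers with saline, 9.13 ± 3.73 CPM, and SB/AKT/c-Met livers with TAA, 12.6 ± 8.3, against 22.5 ± 12.8 in SB + saline. The difference of −1.34 ± 0.58 between SB/AKT/c-Met livers with saline and SB + saline did not pass (edgeR adjusted p = 0.43). Timd4, a receptor for phosphatidylserine on dying cells, was measured by 6 to 29 molecules per liver. Its means ran from 3.17 ± 0.812 CPM in SB/AKT/c-Met livers with saline to 7.7 ± 4.35 in SB/AKT/NRas livers with saline, with 4.97 ± 0.986 in SB + saline and 6.1 ± 2.38 in SB + TAA. No difference of Vsig4, Marco or Timd4 between groups passed.

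Adgre1 (chr17:57358686-57483529, plus strand) gave the most frequent calls. SB + saline held it at 4.28, 5.68, 6.82 and 3.85 CPM, the lowest of the 6 groups. SB/AKT/NRas livers with saline had 8.35, 16.4, 11.4 and 8.79 CPM, and no liver of that group reached down to SB + saline. SB/AKT/c-Met livers with TAA had 10.8, 19.7, 11.4 and 14.7 CPM, and SB/AKT/NRas livers with TAA had 16, 13.6, 9.72, 9.28 and 15.3, again clear of SB + saline. Groups without overlap made up 9.34% of all genes for SB/AKT/NRas livers with saline, 12.8% for SB/AKT/c-Met livers with TAA and 14% for SB/AKT/NRas livers with TAA, each against SB + saline. SB + TAA, at 13.8, 6.71, 7.65 and 6.22, and SB/AKT/c-Met livers with saline, at 4.63, 10.9 and 13.9, overlapped with SB + saline. Against SB + saline, Adgre1 rose by 1.12 ± 0.34 in SB/AKT/NRas livers with saline (edgeR adjusted p = 0.0387), by 1.45 ± 0.34 in SB/AKT/c-Met livers with TAA (adjusted p = 0.0114) and by 1.31 ± 0.32 in SB/AKT/NRas livers with TAA (adjusted p = 0.0097). These 3 comparisons share their control livers. The value with TAA alone, 0.73 ± 0.35, and that with AKT and c-Met alone, 0.95 ± 0.37, did not pass (adjusted p = 0.232 and 0.357). The call for SB/AKT/NRas livers with saline was lost without SB + saline replicate 1, 2 or 4 or SB/AKT/NRas + saline replicate 2 or 3, and that for SB/AKT/c-Met livers with TAA without its replicate 2 (adjusted p = 0.0577). Limma-voom did not call it for SB/AKT/NRas livers with saline. From 9 to 61 molecules per liver stand behind these levels.

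Folr2, a folate receptor of tissue macrophages (chr7:101839988-101857194, minus strand), was the 1 gene that separated SB/AKT/NRas livers with TAA from SB + TAA. SB + TAA held 9.08, 6.71, 10.7 and 6.49 CPM, and SB/AKT/NRas livers with TAA held 31, 22.7, 21.3, 15.1 and 18.5, so the groups did not overlap, as was the case for 4.6% of all genes. The rise was 1.39 ± 0.32, a 2.62-fold difference (edgeR adjusted p = 0.0178). Leaving out SB + TAA replicate 4, the liver with muscle transcripts, gave 1.28 with an adjusted p of 0.0841, and leaving out SB/AKT/NRas + TAA replicate 1 gave 1.23 with an adjusted p of 0.0686. SB + saline, with 7.28, 8.53, 14 and 16.7 CPM, overlapped with both, and against it Folr2 in SB/AKT/NRas livers with TAA differed by 0.89 ± 0.32 (adjusted p = 0.076). In SB/AKT/c-Met livers with TAA the values were 11.1, 20.4, 13.8 and 11.9 CPM, all above SB + TAA, with a difference of 0.79 ± 0.34 that did not pass (edgeR adjusted p = 0.488). The TAA effect in SB/AKT/NRas livers exceeded that in SB livers by 1.14 ± 0.47 for Folr2 (edgeR adjusted p = 0.248), which did not pass. Cd163, the receptor for haptoglobin-hemoglobin complexes, ranged from 1.76 to 14.9 CPM over the livers and overlapped in all pairs of groups compared.

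C6 and Cd5l, the secreted proteins, moved in opposite directions between SB + saline and SB/AKT/NRas livers with TAA. C6, a part of the membrane attack complex (chr15:4727175-4814967, plus strand), stood at 198.2, 214.3, 254.6 and 309.5 CPM in SB + saline and at 156.6, 142.5, 143.1 and 86 in SB + TAA, with no overlap (11.7% of all genes had none). SB/AKT/c-Met livers with saline had 321.4, 230 and 281.6 CPM, above the 135.2, 105.2, 152.2 and 174.5 of SB/AKT/c-Met livers with TAA. SB/AKT/NRas livers with saline spread widely, at 302.9, 204.3, 66.8 and 197.2 CPM, and SB/AKT/NRas livers with TAA had 78.4, 121.5, 155.8, 190.5 and 104. Against SB + saline, C6 fell by 0.91 ± 0.28 on the log2 scale in SB/AKT/NRas livers with TAA (edgeR adjusted p = 0.0379). This call was lost without SB + saline replicate 3 or 4 or SB/AKT/NRas + TAA replicate 1, 2 or 5 (adjusted p = 0.074 to 0.121), and with library size alone as the scaling (adjusted p = 0.125). Its value was −0.89 ± 0.30 in SB + TAA (adjusted p = 0.0762) and −0.78 ± 0.30 in SB/AKT/c-Met livers with TAA (adjusted p = 0.149), both of which missed the threshold. Between SB/AKT/c-Met livers with TAA and those with saline it was −0.97 ± 0.32 (adjusted p = 0.26). C8a and C8b, further parts of the same complex that hepatocytes make, fell in the same group. C8a stood at 463.8 ± 65.2 CPM in SB + saline, at 268.8 ± 67.4 in SB + TAA (edgeR adjusted p = 0.0374) and at 165.3 ± 44.2 in SB/AKT/NRas livers with TAA (adjusted p = 6.36e-05). The SB + TAA call was lost without the 2 livers that stood apart, where 0 of 10 genes of binding partners passed. C8b fell by 2.38 ± 0.49 on the log2 scale in SB/AKT/NRas livers with TAA (adjusted p = 0.0023), and its value in SB + TAA, −1.44 ± 0.51, did not pass (adjusted p = 0.0962). Of the 6 hepatocyte markers, 3 fell in SB/AKT/NRas livers with TAA against SB + saline and 0 in SB + TAA. Their part in the C6 values was not tested.

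Cd5l, which keeps macrophages alive and travels in blood with IgM, was lowest in SB + saline, at 35.5, 44.9, 67 and 51.4 CPM. SB + TAA had 71.9, 65.5, 76.2 and 54.9, and SB/AKT/c-Met livers with TAA had 62.2, 112.9, 90.8 and 87.4. With saline, the livers stood at 44.9, 85.4 and 71.2 CPM in the c-Met model and at 84.4, 93.3, 34.4 and 77.8 in the NRas model, overlapping with SB + saline in both. SB/AKT/NRas livers with TAA had 149.5, 122.1, 59.6, 71.2 and 79.4 CPM, of which 1 liver lay inside the range of SB + saline. The rise in SB/AKT/NRas livers with TAA over SB + saline was 0.95 ± 0.27, a 1.93-fold difference (edgeR adjusted p = 0.0261). It did not pass without SB + saline replicate 1, 2 or 4 or SB/AKT/NRas + TAA replicate 1 or 2 (adjusted p = 0.061 to 0.109). In SB/AKT/c-Met livers with TAA the value was 0.83 ± 0.29 (adjusted p = 0.108). Ighm, the heavy chain of the IgM that carries the Cd5l protein, rose by 2.62 ± 0.38 in SB/AKT/NRas livers with TAA and by 1.47 ± 0.39 in SB/AKT/c-Met livers with TAA (edgeR adjusted p = 5.34e-05 and 0.0308). It also rose, by 2.08 ± 0.41, in SB/AKT/c-Met livers with saline (edgeR adjusted p = 0.00954), where Cd5l differed by 0.44 ± 0.31 and did not pass (adjusted p = 0.645).

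Csf1r held its level more evenly than the other 9 genes, with group means from 25 ± 4.14 CPM in SB + TAA to 37.6 ± 8.66 in SB/AKT/NRas livers with TAA and 26.7 ± 9.2 in SB + saline. The largest of its differences, 0.59 ± 0.21 between SB/AKT/NRas livers with TAA and SB + TAA, did not pass (edgeR adjusted p = 0.202). Of its ligands, Csf1 ranged in mean from 3.7 ± 1.32 CPM in SB + TAA to 6.94 ± 2.34 in SB/AKT/c-Met livers with TAA, with no call in the F test (edgeR adjusted p = 0.416). Il34 was at 0.806 ± 0.292 CPM in SB + saline and at 4.9 ± 3.14 in SB/AKT/NRas livers with saline (log2 difference 2.61 ± 0.69, edgeR adjusted p = 0.018), with 1.92 ± 0.88 in SB/AKT/NRas livers with TAA. Il34 ran from 0.428 to 1.14 CPM in SB + saline and from 0.44 to 7.67 in SB/AKT/NRas livers with saline. It thus overlapped between these groups, near the 0.5 CPM of the filter. It was the 1 of 6 tested growth factors and niche signals that passed.

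Counted by comparison, few of the 10 genes passed. TAA alone (SB + TAA against SB + saline) gave 0 of 10, where 5.99% of all genes passed, and 2 of 10 had an unadjusted edgeR p under 0.05 against 20.7% of all genes. DESeq2 gave 1 in that comparison, C6 at an adjusted p of 0.047, and limma-voom 0, with 1292 and 992 of all 19381 genes called. Oncogenes alone gave 0 of 10 for SB/AKT/c-Met livers with saline, where 0.64% of all genes passed, and 1 of 10, Adgre1, for SB/AKT/NRas livers with saline, where 8.41% did. For SB/AKT/c-Met livers with saline, 3 of 10 had an unadjusted edgeR p under 0.05, against 10.1% of all genes. There limma-voom and DESeq2 gave 0 of 10, with 66 and 248 of all 19381 genes called. For SB/AKT/NRas livers with saline, 1 of 10 did, against 22.4% of all genes. The median log2 difference of the 10 genes was −0.09 with TAA alone, −0.04 with AKT and c-Met and 0.25 with AKT and NRas, beside medians of 0.09, 0.02 and 0.07 over all genes tested. Groups without overlap were found for 1 of 10 genes with TAA alone (C6), 0 with AKT and c-Met alone and 1 with AKT and NRas alone (Adgre1), beside 11.7%, 10.1% and 9.34% of all genes.

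With TAA as the background, oncogenes gave 0 of 10 for SB/AKT/c-Met livers with TAA against SB + TAA (0.402% of all genes) and 1 of 10, Folr2, for SB/AKT/NRas livers with TAA against SB + TAA (1.47% of all genes). Their unadjusted counts were 4 of 10 in each, against 8.91% and 11.2% of all genes. Adding TAA to the oncogene livers gave 0 of 10 in both models (0.237% of all genes with c-Met and 0.175% with NRas). At an unadjusted edgeR p under 0.05 it gave 1 of 10 in each, against 8.69% (c-Met) and 8.65% (NRas) of all genes. The combinations set against SB + saline gave 1 of 10 with c-Met, Adgre1, where 3.76% of all genes passed, and 3 of 10 with NRas, where 9.25% did. At an unadjusted edgeR p under 0.05 these were 3 of 10 with c-Met, against 17.2% of all genes, and 7 of 10 with NRas, against 23.2%. The 10 genes are not 10 independent readings, since most of them varied together between livers of a group, as described further on. The test of whether TAA acted otherwise in oncogene livers than in SB livers gave 0 of 10 in both models, where 0.0103% (c-Met) and 0.758% (NRas) of all genes passed. At an unadjusted p under 0.05 these 2 tests gave 0 and 1 of 10, against 8.45% and 14.9% of all genes. By limma-voom and DESeq2 no gene of the 10 passed in these 5 comparisons that gave 0 with edgeR. Few of all 19381 genes passed there either, 0 to 85 by limma-voom and 12 to 349 by DESeq2. Groups without overlap were found for 1 of 10 genes between SB/AKT/c-Met livers with TAA and SB + TAA (Folr2; 4.48% of all genes), for 1 of 10 with TAA in the c-Met model (C6; 9.07% of all genes) and for 0 of 10 with TAA in the NRas model (2.78% of all genes). For the combinations against SB + saline they were found for 2 of 10 in each model, C6 and Adgre1, beside 12.8% (c-Met) and 14% (NRas) of all genes.

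**Figure D2:**
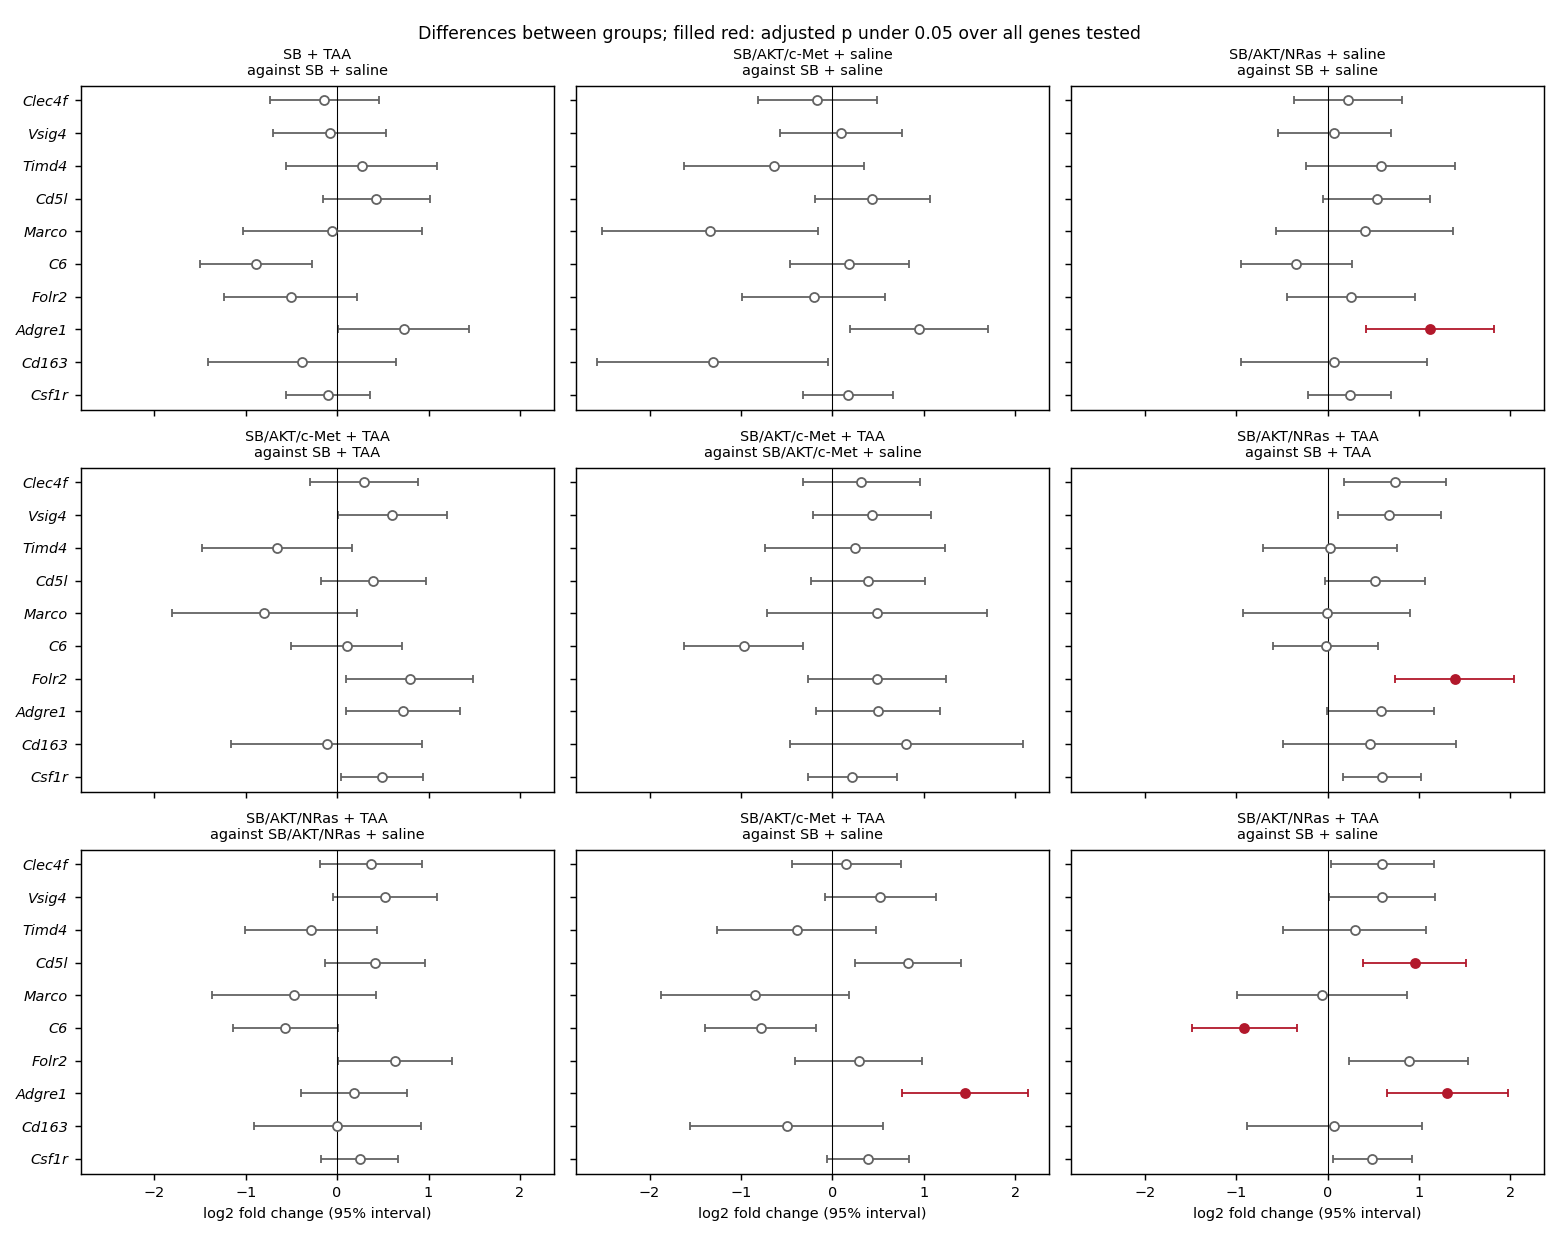
Each panel is 1 of 9 comparisons, with the log2 fold change of each gene on the horizontal axis as a point and its 95% interval as a line; filled red points passed at an edgeR adjusted p under 0.05. Adgre1 is red in 3 panels, and Folr2, Cd5l and C6 in 1 each, while the intervals of most other points cross 0.

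Genes of other macrophages and of monocytes were set beside the 10. In the edgeR F test, 9 of 9 markers of scar-associated macrophages, 5 of 10 markers of macrophages at large and 4 of 8 markers of monocytes passed, against 3 of 10 for the genes described here and 0 of 16 for other Kupffer cell genes. With TAA alone, the counts that passed against SB + saline were 6 of 9, 2 of 10 and 4 of 8, against 0 of 10 and 0 of 16. With AKT and NRas alone they were 8 of 9, 9 of 10 and 3 of 8, against 1 of 10 and 3 of 16. With AKT and c-Met alone they were 3 of 9, 0 of 10 and 0 of 8, against 0 of 10 and 1 of 16. For SB/AKT/NRas livers with TAA against SB + TAA they were 1 of 9, 0 of 10 and 0 of 8, against 1 of 10 and 0 of 16. For SB/AKT/c-Met livers with TAA against SB + TAA all 5 counts were 0. Over all genes, 9.01% passed the F test. In the comparisons, in the order given, 5.99%, 8.41%, 0.64%, 1.47% and 0.402% of all genes passed. Without the 2 livers that stood apart, the F test gave 8 of 10 for macrophages at large and 3 of 16 for other Kupffer cell genes. It gave 9 of 9 and 4 of 8 for the scar-associated and monocyte lists. With AKT and NRas alone, 6 of 16 other Kupffer cell genes then passed, where 3052 of all 19097 genes did. Lgals3, a galectin of scar-associated macrophages, stood at 7.87 ± 2.55 CPM in SB + saline, and reached 56.1 ± 17.4 with TAA alone and 73.7 ± 46.2 with AKT and NRas alone (edgeR adjusted p = 0.0035 and 0.000941). Plac8, expressed by monocytes, went from 8.15 ± 0.98 CPM to 31.9 ± 10.8 and 27.9 ± 9.45 (adjusted p = 0.000669 and 0.00153). Cd68, a lysosomal protein of all macrophages, went from 5.96 ± 2.29 CPM to 21.8 ± 6.82 and 20.8 ± 5.2 (adjusted p = 0.00275 and 0.00291). Several scar-associated markers, Cd9, Cd63 and Spp1 among them, are also expressed by other liver and tumor cells. The lists were chosen with earlier results of these data known, and the difference between them was not tested. Of the lists not given elsewhere, 0 of 7 transcription factors, 0 of 7 dendritic cell markers, 3 of 5 neutrophil markers, 0 of 5 markers of B and T cells, 3 of 6 hepatocyte markers, 4 of 10 genes of binding partners and 6 of 6 muscle markers passed the F test. Without the 2 livers, 2 of 7 transcription factors, 5 of 6 hepatocyte markers and 0 of 6 muscle markers did.

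Of the other Kupffer cell genes, C1qc, Axl and C1qb had the smallest F test p-values. C1qb, a chain of C1q, stood at 40.5 ± 13.7 CPM in SB + saline, at 93.3 ± 30.5 in SB/AKT/NRas livers with saline (edgeR adjusted p = 0.023) and at 105.7 ± 37.8 in SB/AKT/NRas livers with TAA (adjusted p = 0.00579). C1qc rose with it, by 0.81 ± 0.25 and 0.97 ± 0.23 (adjusted p = 0.0385 and 0.00795). Axl, a receptor that helps to engulf dying cells, rose by 0.97 ± 0.22 in SB/AKT/c-Met livers with saline and by 0.74 ± 0.20 in SB/AKT/NRas livers with TAA (edgeR adjusted p = 0.0303 and 0.0171). Among transcription factors of macrophages, Spi1, which encodes PU.1, stood at 3.14 ± 1.45 CPM in SB + saline and rose to 7.9 ± 3.05 in SB/AKT/NRas livers with saline, 8.34 ± 2.1 in SB/AKT/c-Met livers with TAA and 7.85 ± 1.97 in SB/AKT/NRas livers with TAA (edgeR adjusted p = 0.0149, 0.0151 and 0.0104). C1q and PU.1 are made by macrophages of all kinds.

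**Figure D3:**
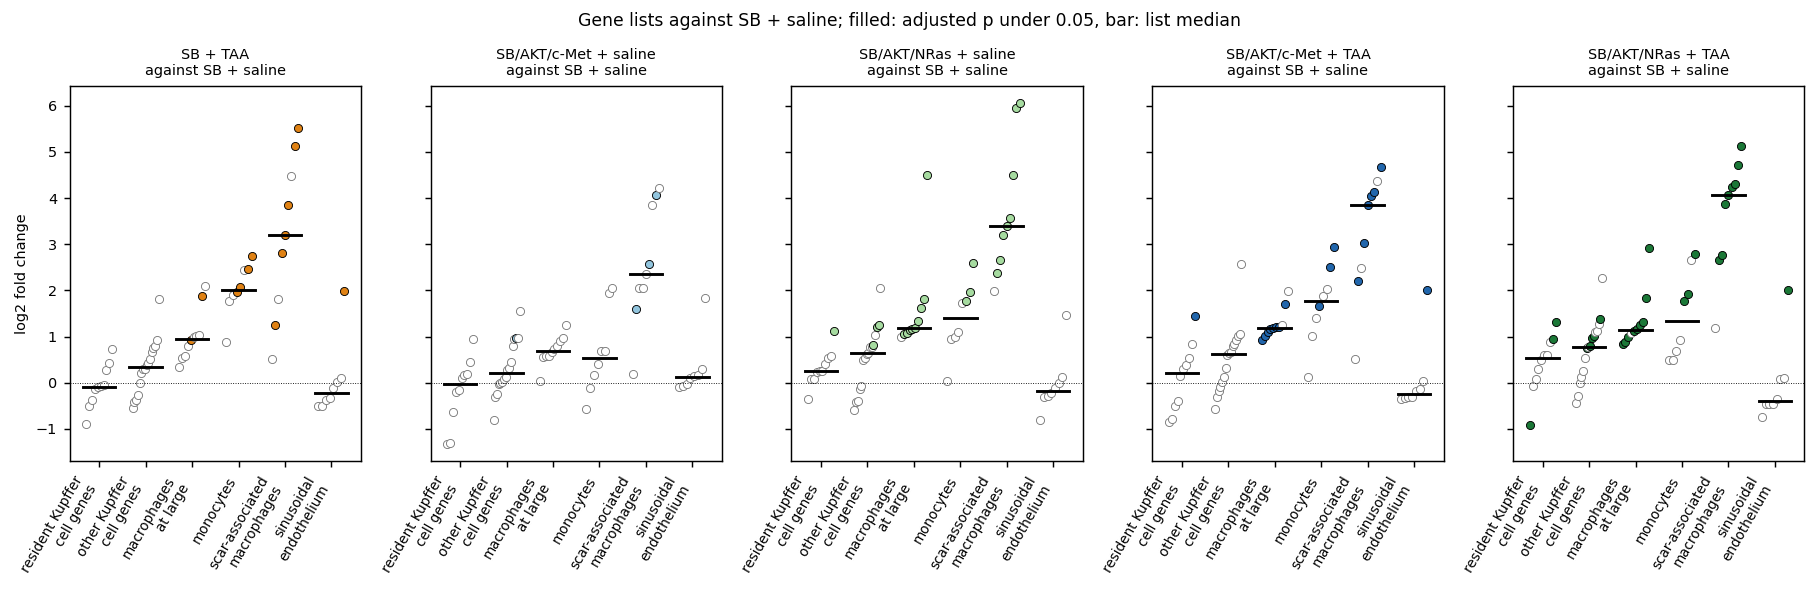
Each panel sets 1 group against SB + saline, with the log2 fold change on the vertical axis and a point for each gene of 6 lists; filled points passed at an edgeR adjusted p under 0.05 and the bar is the median of the list. The medians of the resident Kupffer cell genes are −0.09 (SB + TAA), −0.04 (SB/AKT/c-Met + saline), 0.25 (SB/AKT/NRas + saline), 0.22 (SB/AKT/c-Met + TAA) and 0.54 (SB/AKT/NRas + TAA), and those of scar-associated macrophages run from 2.35 to 4.08.

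The summed levels of the marker lists give the setting of these results. Markers of macrophages at large summed to 181 to 341 CPM in the livers of SB + saline and to 407 to 546 in SB + TAA, 240 to 533 in SB/AKT/c-Met livers with saline, 456 to 741 in SB/AKT/c-Met livers with TAA, 415 to 964 in SB/AKT/NRas livers with saline and 321 to 806 in SB/AKT/NRas livers with TAA. Adgre1, a gene of macrophages at large, was lowest in SB + saline as that list was, and their part in each other was not tested. Monocyte markers summed to 13.1 to 16.8 CPM in SB + saline and to 32.8 to 82.8 in SB + TAA. Markers of sinusoidal endothelium, the neighbours of Kupffer cells, summed to 168 to 219 CPM in SB + saline. The same list had 147 to 218 CPM in SB + TAA, and 0 of 8 passed the F test, or 1 of 8 without the 2 livers. Lyve1, a hyaluronan receptor of this list, passed with TAA alone, at 15.5 ± 6.48 CPM against 3.83 ± 1.86 in SB + saline (log2 difference 1.99 ± 0.51, edgeR adjusted p = 0.0185). It passed in both combinations against SB + saline too (adjusted p = 0.0212 with c-Met and 0.00884 with NRas), and 0 of 8 passed with TAA alone without the 2 livers. All 10 Kupffer cell genes had counts in all 24 livers.

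The ratio of Clec4f to Adgre1 within a liver needs no scaling between libraries and sets the Kupffer cell lectin against F4/80. It was 7.76, 6.52, 12.1 and 17.3 in the SB + saline livers, with a geometric mean of 10.1. The geometric mean was 6.15 with TAA alone, 5.58 in SB/AKT/c-Met livers with saline, 4.47 in SB/AKT/c-Met livers with TAA, 5.7 in SB/AKT/NRas livers with saline and 6.77 in SB/AKT/NRas livers with TAA. Against SB + saline, the log2 ratio differed by −0.73 with TAA alone, −0.87 in SB/AKT/c-Met livers with saline and −0.84 in SB/AKT/NRas livers with saline. With Cd68 in place of Adgre1 the ratio was 12.5, 5.48, 10.9 and 9.97 in the SB + saline livers and 2.36, 5.38, 1.91 and 1.43 with TAA alone, with no overlap. The log2 difference was then −1.94 with TAA alone, −1.22 with AKT and c-Met alone and −1.61 with AKT and NRas alone, each with an exact permutation adjusted p of 0.133. With Adgre1, none of the 7 comparisons passed a two-sided exact permutation test, with adjusted p-values of 0.45 to 0.667. The smallest p that these group sizes allow is 0.0571 for 3 against 4 livers, 0.0286 for 4 against 4 and 0.0159 for 5 against 4. With Cd68, TAA alone and AKT and c-Met alone reached that limit, at unadjusted permutation p of 0.0286 and 0.0571. After adjustment over the 7 comparisons, no comparison could pass on its own, so the lack of calls does not show equal ratios.

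**Figure D4:**
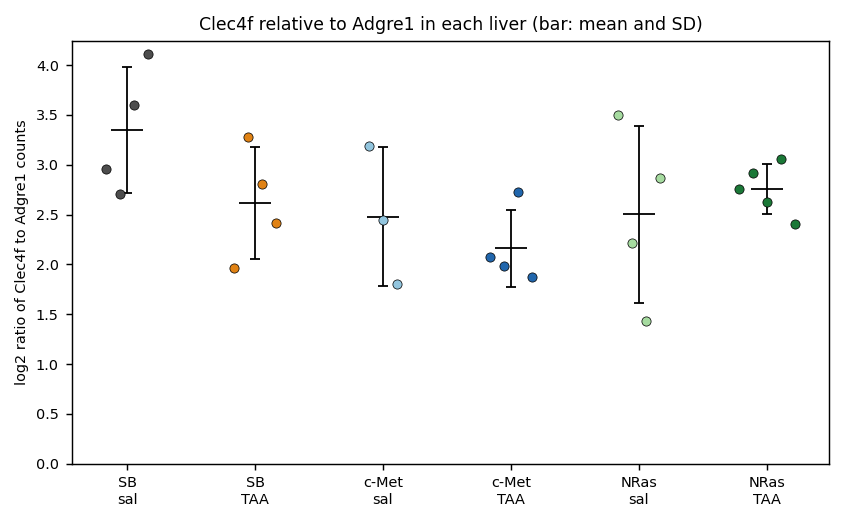
Each point is the log2 ratio of Clec4f to Adgre1 counts in 1 liver, with the mean and SD of the group; the axis starts at 0 and groups are named as in the plot of CPM by liver. SB + saline has the highest mean, 3.34 ± 0.637, and its livers overlap with those of each other group.

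Livers of the same group differed from each other more in these genes than in other genes of like level. The SD within groups was 0.48 on the log2 CPM scale for Clec4f, against a median of 0.24 over the 1254 genes within 0.5 log2 units of its mean level. It was 0.82 against 0.31 for Marco, 0.78 against 0.42 for Cd163, 0.51 against 0.25 for C6 and 0.32 against 0.27 for Csf1r. The excess was present for all 10 genes.

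These differences between livers of a group were shared. After the group means were taken out, Clec4f and Vsig4 correlated over the 24 livers with r = 0.971 (rho = 0.973). Cd5l followed with r = 0.852 (rho = 0.788), Csf1r with 0.759 (0.77), Folr2 with 0.751 (0.743), Marco with 0.715 (0.633) and Timd4 with 0.693 (0.525). These 6 relations passed the permutation test within groups after adjustment over the 9 relations, with adjusted p-values of 4.5e-05 to 0.00418 for r and 9e-05 to 0.0288 for rho. The raw p of Vsig4 and Cd5l, 1e-05, is the smallest that the permutations can give. C6, Cd163 and Adgre1 had r of 0.478, 0.38 and 0.252 (permutation adjusted p = 0.115, 0.154 and 0.243). Without the 2 livers farthest from the median, SB/AKT/NRas + saline replicate 3 and SB + saline replicate 1, r was 0.96 for Vsig4, 0.782 for Cd5l, 0.709 for Csf1r, 0.679 for Timd4, 0.658 for Folr2 and 0.567 for Marco. Both measures of a liver share its library and its scaling factor.

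**Figure D5:**
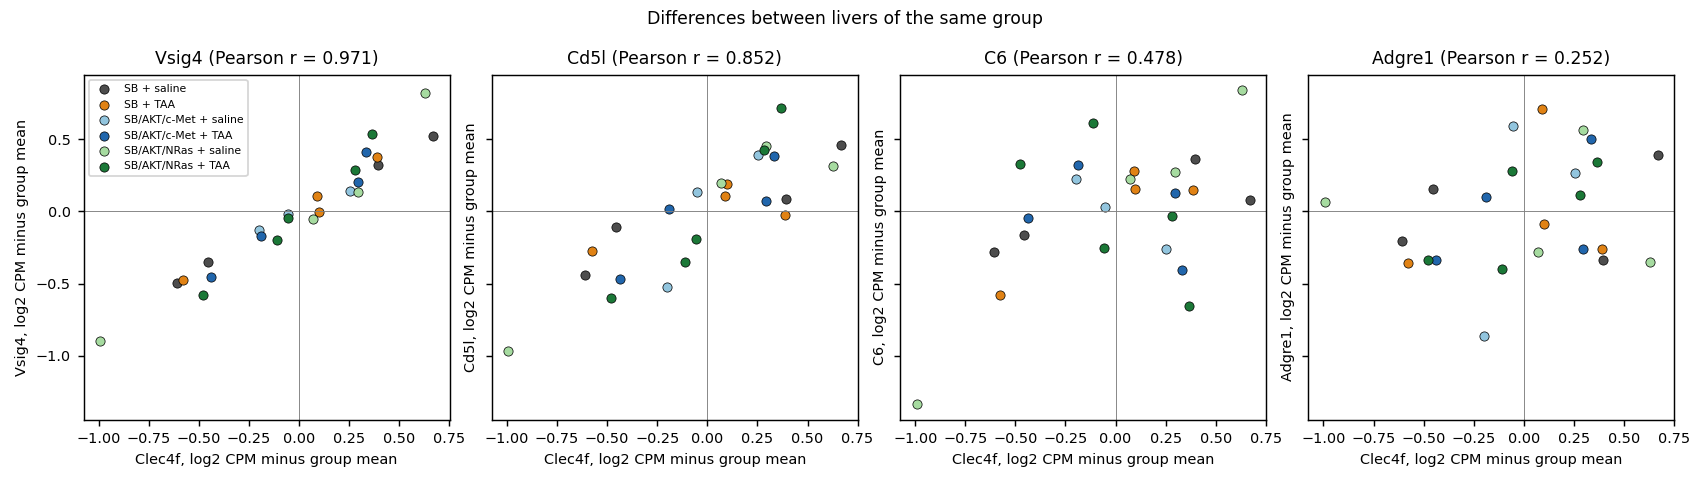
Each point is a liver, coloured by group, placed by its log2 CPM of Clec4f minus the group mean on the horizontal axis and that of Vsig4, Cd5l, C6 or Adgre1 on the vertical axis. Vsig4 (r = 0.971) and Cd5l (r = 0.852) lie along a line, and Adgre1 (r = 0.252) does not.

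The liver farthest down was SB/AKT/NRas + saline replicate 3, with 31 CPM of Clec4f, 10.2 of Vsig4, 34.4 of Cd5l, 66.8 of C6 and 7.39 of Marco, the lowest of its group in each. It had 768 counts of human NRAS, the most of all livers, against 28, 159 and 203 in the other livers of its group. Its Adgre1, at 11.4 CPM, was the second highest of the 4. These are values of 1 liver. In SB/AKT/NRas + TAA, livers with 102, 151, 59, 52 and 302 counts of human NRAS had 109.8, 103.5, 60.8, 78.7 and 81.7 CPM of Clec4f. A relation between human NRAS and the Kupffer cell genes was not tested. In SB + saline, replicates 3 and 4 were above replicates 1 and 2 in Clec4f, Vsig4, Cd5l, Marco, C6, Folr2, Cd163 and Csf1r.

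The gene outside the 10 whose log2 CPM most resembled their mean standardized level over the 24 livers was Cfp, with r = 0.909. Cfp encodes properdin, which stabilizes the complement convertase. Fcna, a ficolin of macrophages, followed with r = 0.816, then Gpr182, a receptor of endothelial cells, with 0.716, Grina with 0.71 and Chmp3 with 0.706. With the group means taken out, the order was Cfp (0.892), Fcna (0.873), Gpr182 (0.775), Siglec1 (0.775), a sialic acid lectin of macrophages, and Fabp7 (0.762). These values are descriptions of 24 livers and carry no test. Cfp ranged in group mean from 39.3 ± 9.71 CPM in SB + TAA to 67.7 ± 21.3 in SB/AKT/NRas livers with TAA, and Fcna from 18.4 ± 2.46 CPM in SB/AKT/c-Met livers with saline to 35.7 ± 9.84 in SB/AKT/NRas livers with TAA.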

How the data were processed

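The authors deposited unnormalized counts of each gene. They aligned reads with STAR to GRCm38 plus human NRAS and MET, collapsed duplicates by molecular tag, and used featureCounts 1.6.4 for reads of the forward strand whose mapping quality reached 10. The 2 deposited tables held equal counts in all 1283208 cells compared. The filter on low values kept genes that reached 0.5 CPM in 2 or more livers. These were scaled by TMM and fitted with 1 quasi-likelihood model of the 6 group means in edgeR 4.0.16 (R 4.3.3), with Benjamini-Hochberg adjustment over 19381 genes. The limma-voom test of the study is an alternative here (limma 3.58.1), as is DESeq2 1.42.0. Log2 CPM for correlations used a prior count of 2, and the ratio of Clec4f to Adgre1 a pseudocount of 0.5 counts. Correlations were tested with 1e+05 permutations of livers within groups. Plots used matplotlib 3.10.9 under Python 3.11.15. The model was tested on simulated data, but how often it finds differences as small as most of those here is not reported. The genes named beside the 10 are up to 3 of each list with the smallest F test p, Csf1 and Il34, and the most correlated genes; Spp1 and Lyve1 were named after their values were seen. The 10 genes and all lists were chosen with earlier results of these data known. C5 was not analysed here, and Csf2, Ngp and Cd79a did not pass the filter. Each library is 1 mouse, and its depth of 2152510 to 3399247 counts sets the precision of genes with few counts.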

Additional observations from a re-analysis of the deposited data

Results flagged for a closer look

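Of 50 gene and group pairs with 4 or 5 livers, 1 held a liver set off from its group: Csf1r in SB + TAA replicate 2, at 31.2 CPM, where the other 3 livers lay at 22.5 to 23.8. The gap was 0.852 of the range of the group. Chance alone flags about 1 in 20 such groups, so 1 of 50 is no more than chance gives. The same liver had the highest Clec4f (66.7 CPM) and Vsig4 (24.5 CPM) of its group, and its Cd5l, at 65.5 CPM, was not set off.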

How the results depend on the processing

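The counts below are of the 10 genes that passed, and the cause of each change was not tested unless given. With TAA alone (0 in the edgeR fit of all groups), DESeq2, library size alone, no filter and a fit of the groups compared only gave 1 each. Over all genes, calls there went from 1160 of 19381 to 1292 of 19381, 2989 of 19381, 1774 of 27769 and 1084 of 16688, in that order. SB/AKT/c-Met livers with saline against SB + saline (0) gave 1 with no filter, where calls over all genes went from 124 of 19381 to 423 of 27769. SB/AKT/NRas livers with saline against SB + saline (1) gave 0 by limma-voom, 3 with library size alone and 0 in a fit of both groups only. Over all genes, calls there went from 1629 of 19381 to 1455 of 19381, 3685 of 19381 and 809 of 16622. TAA against saline in SB/AKT/c-Met livers (0) gave 1 with no filter and 1 in a fit of both groups only. Over all genes, calls there went from 46 of 19381 to 276 of 27769 and 199 of 16445. SB/AKT/NRas livers with TAA against SB + TAA (1) gave 2 with no filter, where calls over all genes went from 285 of 19381 to 695 of 27769. SB/AKT/c-Met livers with TAA against SB + saline (1) gave 4 with library size alone, 3 with no filter and 3 in a fit of both groups only. Over all genes, calls there went from 728 of 19381 to 1944 of 19381, 1265 of 27769 and 1619 of 16426. SB/AKT/NRas livers with TAA against SB + saline (3) gave 6 with library size alone, where calls over all genes went from 1793 to 3808 of 19381. The test among the 6 groups (3) gave 0 by limma-voom, 7 with library size alone, 6 with no filter and 0 with a replicate block. Over all genes, 9.01% passed that test in the edgeR fit of all groups, and the share under other settings was not counted. These changed counts therefore cannot be read as a result about the 10 genes.

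Library size alone moved the median of all genes by 0.26 to 0.432 on the log2 scale in the 5 comparisons with SB + saline, and raised the share of higher calls from 58.1% to 92.2% (SB + TAA), 66.2% to 94.3% (SB/AKT/NRas livers with saline), 71.4% to 94.3% (SB/AKT/c-Met livers with TAA) and 61.6% to 92.2% (SB/AKT/NRas livers with TAA). Taken over all genes kept, livers with the same replicate number did not deviate together (mean correlation −0.00717, against 0.00211 for other pairs). The labels do not say whether livers of a number were handled together, and a batch acting on single genes was not tested. With the block, C6 in SB/AKT/NRas livers with TAA against SB + saline had an adjusted p of 0.117.

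Leaving out 1 liver at a time gave 0 to 1 for SB/AKT/NRas livers with saline against SB + saline, 0 to 1 for SB/AKT/NRas livers with TAA against SB + TAA, 0 to 1 for SB/AKT/c-Met livers with TAA against SB + saline, 1 to 3 for SB/AKT/NRas livers with TAA against SB + saline (1 without SB + saline replicate 4 or SB/AKT/NRas + TAA replicate 1 or 2) and 0 to 3 among the 6 groups. The log2 ratio of Clec4f to Adgre1 ranged from −0.078 to 0.36 for SB/AKT/NRas livers with TAA against SB + TAA, from −0.653 to 0.0401 for TAA against saline in SB/AKT/c-Met livers and from −0.107 to 0.581 for TAA against saline in SB/AKT/NRas livers. With Cd68 in place of Adgre1, SB/AKT/c-Met livers with TAA against SB + TAA turned from −0.451 to 0.438. The same exchange moved TAA alone from −0.729 to −1.94, AKT and NRas alone from −0.839 to −1.61 and AKT and c-Met alone from −0.867 to −1.22, with none of the 7 passing. Of the 83 values of single genes with an unadjusted p of 0.05 or more, 35 changed sign under at least 1 setting and 4 passed with library size alone. Few counts for Timd4, Adgre1 and Cd163 limit what could be detected in them.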
